A study of Mus musculus with 3 samples.

Results

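The CXC and CX3C chemokines described here were 10 genes, out of 26840 with a symbol on the array, found as the gene probes named *Cxcl1*, *Cxcl2*, *Cxcl3*, *Cxcl9*, *Cxcl10*, *Cxcl11*, *Cxcl12*, *Cxcl14*, *Cxcl16* or *Cx3cl1*. They were measured by 16 probes of 60 bases, 1 spot each, on 1-colour microarrays of RAW 264.7 cells, a transformed mouse macrophage line. Cells of the LPS group received 50 ng/mL of LPS, the TLR4 agonist, without lactobacilli. Cells of the CRL1505 + LPS and CRL1506 + LPS groups were first cultured for 24 h with 50000000 cells/mL of *Lacticaseibacillus rhamnosus* CRL1505 or *Lactiplantibacillus plantarum* CRL1506, washed, and then given the same LPS. The LPS step lasted 12 h per the design text, whereas the sample descriptions give 3 h. All groups thus carried LPS, cells without it were not analysed here, and there was 1 array per group, so that no test between groups was possible and every difference is between single cultures. The array of CRL1505 + LPS was on another slide and in another scan run than the remaining arrays, so that strain and slide cannot be told apart for CRL1505.

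Chemokines are small secreted proteins that guide leukocytes through G protein-coupled receptors on their surface, and they are named for the spacing of the first cysteines of the mature protein. In macrophages, LPS switches on several of them through NF-kB, and a further set through type I interferon made by the same cells. *Cxcl1*, *Cxcl2* and *Cxcl3* attract neutrophils through CXCR2, *Cxcl9*, *Cxcl10* and *Cxcl11* attract activated T cells and NK cells through CXCR3, *Cxcl12* and *Cxcl14* are made mainly by stromal and epithelial cells, and *Cxcl16* and *Cx3cl1* are made as transmembrane proteins that serve as adhesion molecules until they are shed.

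The promoters of *Cxcl1*, *Cxcl2*, *Cxcl3*, *Cxcl9* and *Cxcl10* are shown because the results for the ligands of CXCR2 and CXCR3 turn on these genes of chromosome 5. Each is the run of 220 bases up to the transcription start in RefSeq (GRCm38.p6), 5′ to 3′ in the direction of the gene, and capitals mark matches to the NF-kB consensus, the TATA box (TATAAA) or the ISRE core (GAAANNGAAA). They lie at chr5:90891025-90891244 (+ strand), chr5:90903679-90903898 (+), chr5:90785881-90786100 (+), chr5:92328080-92328299 (- strand) and chr5:92348890-92349109 (-).
*Cxcl1*: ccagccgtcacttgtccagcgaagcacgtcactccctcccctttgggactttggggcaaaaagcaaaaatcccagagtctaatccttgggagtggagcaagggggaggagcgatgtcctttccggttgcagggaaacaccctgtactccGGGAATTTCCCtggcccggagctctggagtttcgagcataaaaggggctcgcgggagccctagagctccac
*Cxcl2*: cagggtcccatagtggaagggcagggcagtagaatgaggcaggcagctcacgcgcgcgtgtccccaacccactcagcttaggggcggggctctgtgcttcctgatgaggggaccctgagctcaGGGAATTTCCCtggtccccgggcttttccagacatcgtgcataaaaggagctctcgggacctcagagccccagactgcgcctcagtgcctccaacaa
*Cxcl3*: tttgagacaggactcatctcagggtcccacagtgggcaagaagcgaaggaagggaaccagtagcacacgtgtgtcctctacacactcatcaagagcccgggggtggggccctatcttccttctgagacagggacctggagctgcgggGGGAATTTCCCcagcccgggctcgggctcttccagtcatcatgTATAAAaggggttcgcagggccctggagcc
*Cxcl9*: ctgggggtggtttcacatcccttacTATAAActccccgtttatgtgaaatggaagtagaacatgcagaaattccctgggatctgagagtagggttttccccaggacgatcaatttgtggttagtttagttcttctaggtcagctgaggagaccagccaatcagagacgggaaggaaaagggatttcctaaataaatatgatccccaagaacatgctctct
*Cxcl10*: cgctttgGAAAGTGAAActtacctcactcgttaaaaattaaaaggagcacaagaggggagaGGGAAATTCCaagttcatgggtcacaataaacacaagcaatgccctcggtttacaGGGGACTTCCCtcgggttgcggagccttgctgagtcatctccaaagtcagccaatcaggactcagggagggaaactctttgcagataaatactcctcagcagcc

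Of the 10 genes, 8 (not *Cxcl11* and *Cxcl16*) had a promoter window of 300 bases (250 before and 50 after the start) in the table used. On either strand, the NF-kB consensus matched in 4 of these 8 windows, those of *Cxcl1*, *Cxcl2*, *Cxcl3* and *Cxcl10*, and in 8.46% of 32851 windows of all genes. In *Cxcl1*, *Cxcl2* and *Cxcl3* the match was the same run, GGGAATTTCCC, whose strands each hold a match shifted by 1 base, and it began 71, 97 and 73 bases before the start. *Cxcl10* held the consensus in a pair of places, 159 and 104 bases before the start, the latter with overlapping matches. The ISRE core matched in *Cxcl10*, 213 bases before the start, and in *Cxcl14*, against 3.44% of all windows. The GAS element (TTCNNNGAA) matched in *Cxcl14* alone among the 8, against 8.3%, and TATAAA in *Cxcl3*, *Cxcl9* and *Cx3cl1*, against 13.6%. These are matches of letters and not shown to be sites.

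Of the 10 genes, 5 (*Cxcl2*, *Cxcl9*, *Cxcl10*, *Cxcl11* and *Cxcl16*) were well above background on all 3 arrays by the call of the scanner software, and *Cxcl3* was on none. No chemokine spot was saturated, uneven or an outlier. Values are processed signals (intensities), and ratios are log2 differences after each array was shifted by its 75th percentile, a signal of 743.1 (LPS), 517.0 (CRL1505 + LPS) or 697.9 (CRL1506 + LPS), so that an equal signal stands for a higher level in CRL1505 + LPS. The error given with a ratio is that of the software for the spots. Repeated spots of other probes gave a median SD of 0.043 to 0.048 for a log2 ratio and different probes of a gene a median SD of 0.215 to 0.323, neither of which holds variation between cultures. Where a gene was not well above background on 1 of the arrays compared, its ratio is a bound, set against the higher of its own signal and the lowest signal called well above background there.

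**Figure D1:**
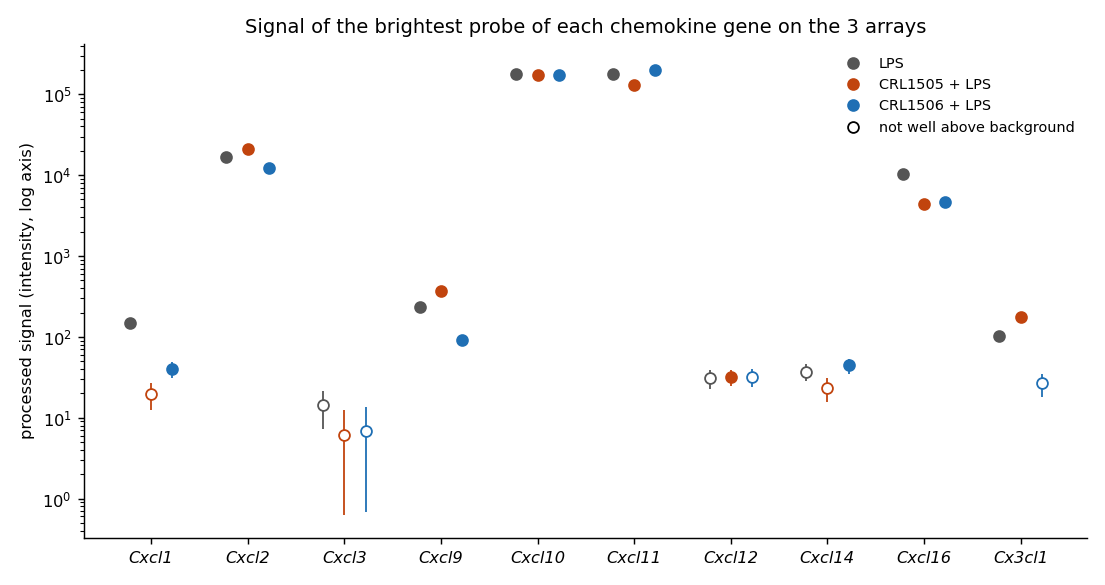
Processed signal of the brightest probe of each gene on a log axis, by array, with the error of the scanner software as bars (a bar that would reach 0 stops short of it) and open circles for signals not well above background. *Cxcl1* is highest in LPS and *Cxcl2*, *Cxcl9* and *Cx3cl1* in CRL1505 + LPS, and points are to be compared within a gene only, since probes differ in brightness.

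In CRL1505 + LPS against LPS, 8 of the 10 genes could be compared. *Cxcl9* and *Cx3cl1* were at least 2-fold higher and *Cxcl1* at least 2-fold lower, while over all genes 9.93% of 15603 were at least 2-fold higher and 8.41% lower. In CRL1506 + LPS against LPS, 8 could be compared and *Cxcl1*, *Cxcl9*, *Cxcl16* and *Cx3cl1* were at least 2-fold lower. None was higher, while 5.67% of 16279 genes were at least 2-fold higher and 3.53% lower. Between the strains, 9 could be compared, and *Cxcl2*, *Cxcl9* and *Cx3cl1* were at least 2-fold higher in CRL1505 + LPS. None was lower there, while 9.02% of 15780 genes were higher and 7.47% lower. The median log2 ratio of the chemokines was 0.47 for CRL1505, -0.71 for CRL1506 and 0.39 between the strains, against 0.01, -0.06 and 0.03 over all genes.

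For CRL1505 against LPS, spike-in scaling and the median shift moved these values together with those of all genes. Scaled to 272 spots of spike-in probes, the median of all genes for CRL1505 against LPS was -0.60 and 703 genes were at least 2-fold higher and 4037 lower, in place of 1549 and 1312. With the median shift, that median was 0.33 with 2417 genes higher and 760 lower. Taken relative to the median of all genes, the median of the chemokines lay between 0.33 and 0.51 for CRL1505, between -0.65 and -0.44 for CRL1506 and between 0.36 and 0.94 between the strains over the main scaling and 6 other normalizations. Between the strains, quantile normalization and cyclic loess left the median of all genes at 0.01 and 0.03. That of the chemokines was 0.92 and 0.97 there, over 7 genes compared in place of 9.

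**Figure D2:**
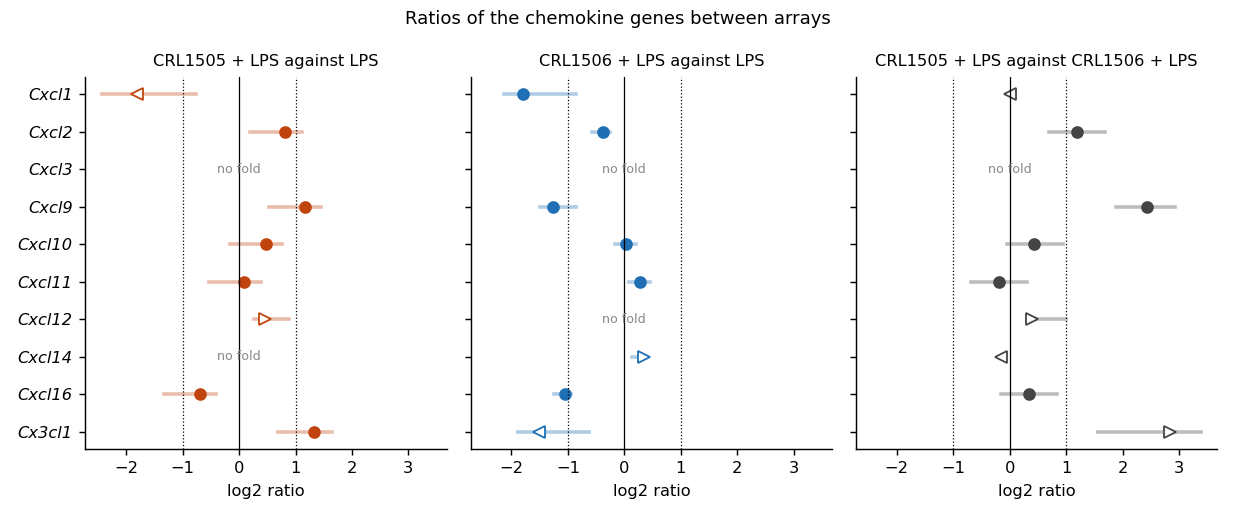
Log2 ratios of the 10 genes in each comparison, with circles for measured ratios, open triangles for bounds (pointing the way in which the true ratio may be larger) and pale lines for the range over 6 other normalizations. Dotted lines mark 2-fold, and "no fold" marks genes that gave none. *Cxcl9* and *Cx3cl1* lie to the right in CRL1505 + LPS and to the left in CRL1506 + LPS, and *Cxcl1* lies to the left with both strains.

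Among the CXCR2 ligands, *Cxcl1* was at least 2-fold lower after either strain in the main scaling, and *Cxcl2* stayed under 2-fold against LPS there. The signal of *Cxcl1* (1 probe, chr5:91322080-91322139 in mm9) was 148.0 in LPS, 40.04 in CRL1506 + LPS and 19.81 in CRL1505 + LPS, the last not well above background. LPS alone was the highest of the 3. *Cxcl1* had a log2 ratio of -1.80 ± 0.35 with CRL1506 (3.47-fold lower) and was at least 3.47-fold lower with CRL1505, and no order of the strains could be given. On the LPS array 3 of the 20 spots nearest to the *Cxcl1* spot were uneven, none on the others. The difference passed 2-fold in 5 of 6 other normalizations for each strain, and with normexp background correction it came to -0.86 for CRL1506 and to a bound of -0.76 for CRL1505.

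*Cxcl2*, also known as MIP-2, was bright on all arrays. Its signal (1 probe, chr5:91334534-91334593 in mm9) was 16926 in LPS, 20792 in CRL1505 + LPS and 12278 in CRL1506 + LPS. CRL1505 stood at a log2 ratio of 0.82 ± 0.20 to LPS and CRL1506 at -0.37 ± 0.20, under 2-fold for either strain. For CRL1505 the ratio lay between 0.19 (spike-in scaling) and 1.12 (median shift) over the other normalizations, past 2-fold in 1 of 6. Set against each other, the strains differed by 1.19 ± 0.20, with *Cxcl2* 2.29-fold higher in CRL1505 + LPS, and over the other normalizations that difference lay between 0.70 and 1.69 and passed 2-fold in 2 of 6. *Cxcl3* (signals of 14.17, 6.177 and 6.821 in LPS, CRL1505 + LPS and CRL1506 + LPS) was not detectable on any array. Both *Cxcl1* and *Cxcl2* hold the NF-kB letters shown above, and whether these letters bear on their ratios was not tested.

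Among the CXCR3 ligands, *Cxcl9* passed 2-fold against LPS, in opposite ways by strain, and *Cxcl10* and *Cxcl11* stayed under 2-fold. *Cxcl9*, which interferon-gamma is known to induce most strongly of the 3, had a signal (1 probe, chr5:92752191-92752250 in mm9) of 235.1 in LPS, 365.5 in CRL1505 + LPS and 91.31 in CRL1506 + LPS. It was highest with CRL1505 and lowest with CRL1506. The log2 ratio to LPS was 1.16 ± 0.21 for CRL1505 and -1.27 ± 0.23 for CRL1506, and *Cxcl9* was 5.40-fold higher in CRL1505 + LPS than in CRL1506 + LPS (2.43 ± 0.23). Over the other normalizations this difference between the strains lay between 1.88 and 2.93, above 2-fold in 6 of 6. The ratio to LPS was least for CRL1505 with spike-in scaling (0.53) and for CRL1506 with normexp (-0.86).

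*Cxcl10*, also known as IP-10 and a direct target of IRF factors, was bright on each array, at 178463 in LPS, 171863 in CRL1505 + LPS and 170940 in CRL1506 + LPS by its brighter probe (chr5:92775781-92775840 in mm9). The signals hardly differ, and after scaling the log2 ratio to LPS was 0.47 ± 0.20 (CRL1505) or 0.03 ± 0.20 (CRL1506). The dimmer probe (chr5:92776616-92776675) had signals of 2903, 2633 and 4592 and ratios of 0.38 and 0.75. By the brighter probe the strains differed by 0.44 and by the dimmer one by -0.37, so the order of the strains for *Cxcl10* was not set.

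*Cxcl11*, which RefSeq lists as a transcribed pseudogene in the reference strain, had signals of 176284 in LPS, 130683 in CRL1505 + LPS and 200926 in CRL1506 + LPS by its brighter probe (chr5:92788567-92788626 in mm9), with log2 ratios to LPS of 0.09 ± 0.20 and 0.28 ± 0.20. The dimmer probe (chr5:92788640-92788699) had signals of 2250, 1795 and 3576 and ratios of 0.20 and 0.76. For CRL1506 the dimmer probes of *Cxcl10* and *Cxcl11* thus lay higher than the brighter ones, by more than the median SD between probes. With CRL1505 the sign of the *Cxcl11* ratio was positive in 2 of 6 other normalizations.

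**Figure D3:**
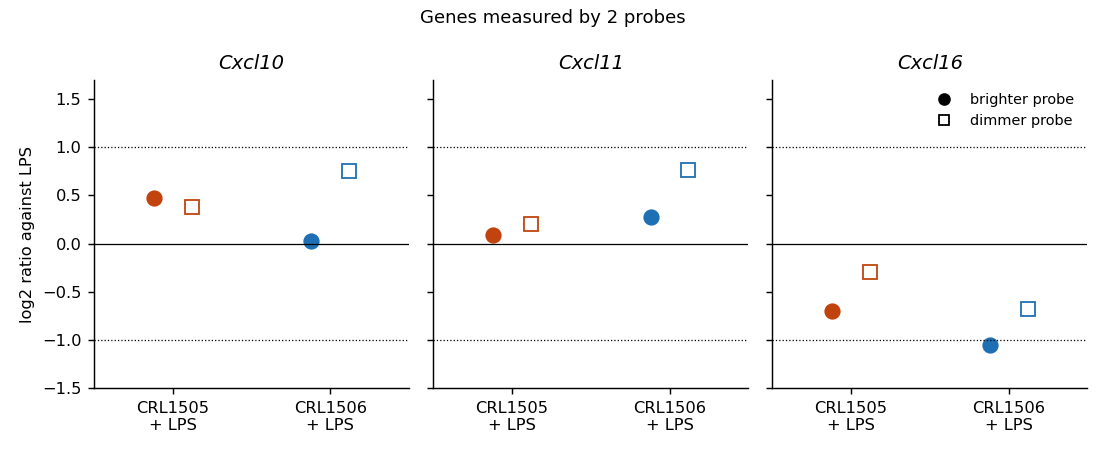
Log2 ratios to LPS by probe for the 3 genes with 2 probes well above background on all arrays, with filled circles for the brighter probe of the gene, open squares for the dimmer one and dotted lines at 2-fold. With CRL1506, *Cxcl10* and *Cxcl11* read 0.03 and 0.28 by the brighter probe and 0.75 and 0.76 by the dimmer one, and *Cxcl16* reads below 0 by either probe with either strain.

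The transmembrane chemokines went apart with CRL1505 and were both lower with CRL1506. *Cxcl16*, the ligand of CXCR6 and a scavenger receptor for oxidised lipoprotein, had a signal of 10322 in LPS, 4408 in CRL1505 + LPS and 4695 in CRL1506 + LPS (chr11:70267780-70267839 in mm9). LPS alone was the highest of the 3 by this probe and by the other probe (7788, 4421 and 4562, chr11:70269481-70269540). Against LPS, CRL1505 stood at a log2 ratio of -0.70 ± 0.20 by the brighter probe and -0.29 by the dimmer one, and CRL1506 at -1.05 ± 0.20 and -0.68. The 2-fold line was thus passed for CRL1506 by 1 of 2 probes, and in 3 of 6 other normalizations.

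*Cx3cl1* (fractalkine), the ligand of CX3CR1, had a signal of 101.0 in LPS, 174.9 in CRL1505 + LPS and 26.5 in CRL1506 + LPS (chr8:97306185-97306244 in mm9), the last not well above background. It was highest with CRL1505 and lowest with CRL1506, the same order as *Cxcl9*. The log2 ratio to LPS was 1.32 ± 0.24 for CRL1505, a 2.49-fold higher level, and *Cx3cl1* was at least 2.87-fold lower with CRL1506. The difference between the strains was at least 7.14-fold (log2 bound 2.84), and in the other normalizations the bound lay between 1.57, with the deposited table, and 3.39, past 2-fold in 6 of 6. Against LPS, the ratio for CRL1505 passed 2-fold in 3 of 6 (lowest 0.69, spike-in scaling) and that for CRL1506 in 4 of 6 (least -0.63, normexp). A second probe of *Cx3cl1*, for another transcript model and spread over 5033 bases of genome, had signals of 6.629, 6.029 and 11.87 and was detected on none of the arrays.

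The homeostatic chemokines were at the edge of detection. *Cxcl12*, the ligand of CXCR4, had signals of 30.79, 31.99 and 31.78 in LPS, CRL1505 + LPS and CRL1506 + LPS, of which only that of CRL1505 + LPS was called well above background, at least 1.38-fold higher than in LPS. *Cxcl14* had signals of 37.15, 23.34 and 44.35, of which only that of CRL1506 + LPS was called, at least 1.27-fold higher than in LPS. Neither bound reached 2-fold. The *Cxcl12* signals hardly differ, so that its bound came from the scaling, and spike-in scaling gave no fold. A second probe of each gene was called on no array. That of *Cxcl14* read higher in LPS (21.35) than in CRL1506 + LPS (7.589).

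Plotted against each other, the ratios of both strains to LPS set *Cxcl9* apart from the other 4 chemokines well above background on all arrays. Both ratios share the LPS array. Of the 13121 other genes that could be placed, those with the most similar pair of ratios, by Euclidean distance over these 2 log2 values, included *Iqsec3* (1.13 and -1.22, distance 0.06) and *AW112010* (1.19 and -1.45, distance 0.18). With *Cxcl9*, 29 genes (0.221%) were at least 2-fold higher with CRL1505 and at least 2-fold lower with CRL1506, and 7 the other way.

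**Figure D4:**
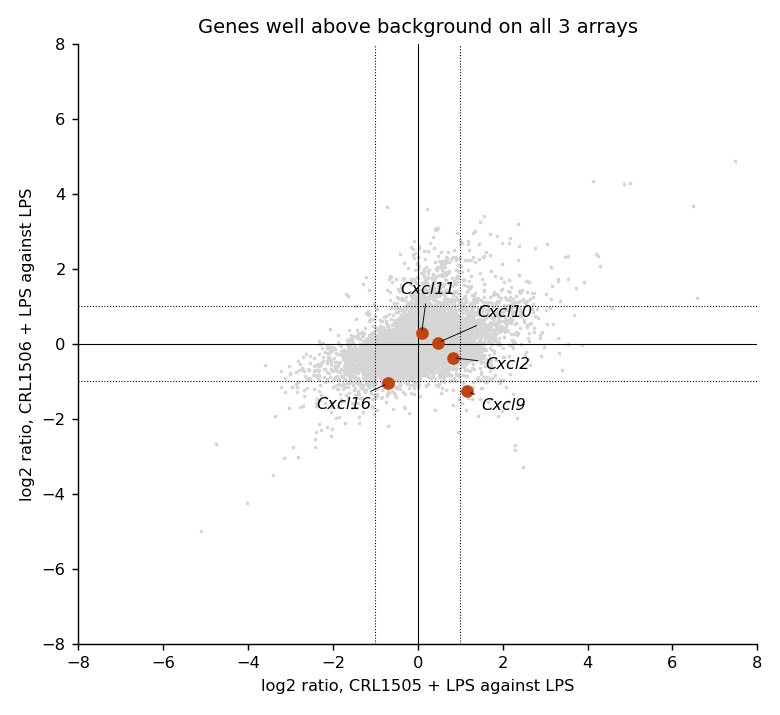
Log2 ratio to LPS with CRL1505 (horizontal) and with CRL1506 (vertical) for genes detected on each of the 3 arrays in grey and the 5 chemokines among them in red, with dotted lines at 2-fold. *Cxcl9* (1.16 and -1.27) is the chemokine in the corner past 2-fold both ways, which holds 29 genes in all.

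Among genes of the pathways around the chemokines, 3 of the 9 receptors were at least 2-fold lower with CRL1505 and none higher, of 5 compared. Over all genes 8.41% were lower and 9.93% higher. *Cx3cr1*, the receptor of *Cx3cl1*, had a signal of 2430 in LPS, 531 in CRL1506 + LPS and 7.09 in CRL1505 + LPS, the last not well above background, so that it was at least 57.1-fold lower with CRL1505 and 4.30-fold lower with CRL1506 (log2 ratio -2.10). On the log2 scale the bound for CRL1505 was -5.84, and between -6.47 and -4.22 over the other normalizations. *Cx3cr1* was highest in LPS, whereas *Cx3cl1* was highest in CRL1505 + LPS and lowest in CRL1506 + LPS, so the orders were not opposite. *Cxcr3*, the receptor of *Cxcl9*, *Cxcl10* and *Cxcl11*, had signals of 484, 35.8 and 273 in LPS, CRL1505 + LPS and CRL1506 + LPS, with log2 ratios of -3.23 and -0.73. Its signal in CRL1505 + LPS was near the lowest called well above background there (29.6). Over the other normalizations its ratio with CRL1505 lay between -3.86 and -1.88. *Cxcr4* was at least 2.70-fold lower with CRL1505 (log2 bound -1.43) and at 0.08 with CRL1506, but over the other normalizations the bound lay between -2.06 and -0.53, so that 2 receptors and not 3 were past 2-fold with normexp and with the deposited table. *Cxcr6* was higher with CRL1506 at 1.18, though 0.42 at the lowest normalization. Of the 6 other CXC ligands on the array, 4 could not be detected, *Pf4* (platelet factor 4) was at -0.72 and -0.68, and *Ppbp* was at least 4.61-fold lower with CRL1505 and at least 5.58-fold lower with CRL1506. The log2 bounds of *Ppbp*, -2.20 and -2.48, came to -1.12 and -1.33 at the least over the other normalizations.

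Of the 14 genes for NF-kB and its cofactors at these promoters, *Egr1* (2.46) and *Tnfaip3* (1.11), which encodes the inhibitor A20, were at least 2-fold higher with CRL1505 and none lower. With CRL1506, *Egr1* was higher (1.45) and *Bcl3* lower (-1.13), and *Tnfaip3* was at -0.29. Over all genes, 9.93% were at least 2-fold higher and 8.41% lower with CRL1505, and 5.67% and 3.53% with CRL1506. Between the strains all 14 were higher in CRL1505 + LPS, by 0.02 to 1.41 with a median of 0.96, and 7 of them by at least 2-fold. Over all genes, 8148 of 15780 were higher there, and 9.02% by at least 2-fold. Under the other normalizations between 11 and 14 of the list were higher and between 0 and 11 by at least 2-fold, with the fewest under spike-in scaling. *Cxcl2*, at 1.19, lay inside the range of 0.02 to 1.41.

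Of the 18 genes of the interferon axis, 7 of 17 compared were at least 2-fold higher with CRL1505 and none lower, against 9.93% and 8.41% of all genes. Among them were *Ifnb1*, which encodes interferon-beta (3.46), the feedback inhibitors *Usp18* (2.13) and *Socs1* (1.54), *Irf7* (1.90), *Stat2* (1.56) and *Jak2* (1.53). With CRL1506, *Ifnb1* (2.31) and the receptor chain *Ifnar1* (1.37, and 0.46 with CRL1505) passed 2-fold, and *Usp18*, *Socs1*, *Irf7*, *Stat2* and *Jak2* lay between 0.30 and 0.87. Under spike-in scaling 3 were at least 2-fold higher and 2 lower with CRL1505, and 7 or 8 higher and none lower in the other normalizations. *Ifng* was not detectable on any array. *Ifnb1* was at least 2-fold higher with either strain, and its part in the ratios of *Cxcl9*, *Cxcl10* and *Cxcl11* was not tested.

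None of the 8 measured proteases of 12 that shed or trim chemokines passed 2-fold with either strain in the main scaling. Over all genes, 9.93% were at least 2-fold higher and 8.41% lower with CRL1505, and 5.67% and 3.53% with CRL1506. Under spike-in scaling 3 proteases were at least 2-fold lower with CRL1505, against 4037 of 16021 genes. Under the median shift 1 was lower with CRL1506, against 873 of 16267 genes. *Adam10* and *Adam17*, which shed *Cxcl16* and *Cx3cl1* from the membrane, were at -0.41 and -0.58 with CRL1505 and at -0.47 and -0.43 with CRL1506. Their lowest values with CRL1505 over the other normalizations were -1.04 and -1.21. Of 8 genes for the decay or stabilisation of chemokine mRNA, *Zfp36* (tristetraprolin) was higher with CRL1505 (1.36, and -0.11 with CRL1506). *Zfp36l1* was lower with both (-1.40 and -1.58), and *Zc3h12a* (regnase-1) was lower with CRL1506 (-1.18, and -0.21 with CRL1505). With CRL1505, 1 of the 8 was thus higher and 1 lower, close to the shares of 9.93% and 8.41% over all genes. With CRL1506, 2 were lower and none higher, against 3.53% and 5.67% of all genes. Over the other normalizations *Zfp36* with CRL1505 came to 0.73 at the lowest, and the values of *Zfp36l1* and *Zc3h12a* past 2-fold stayed so.

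**Figure D5:**
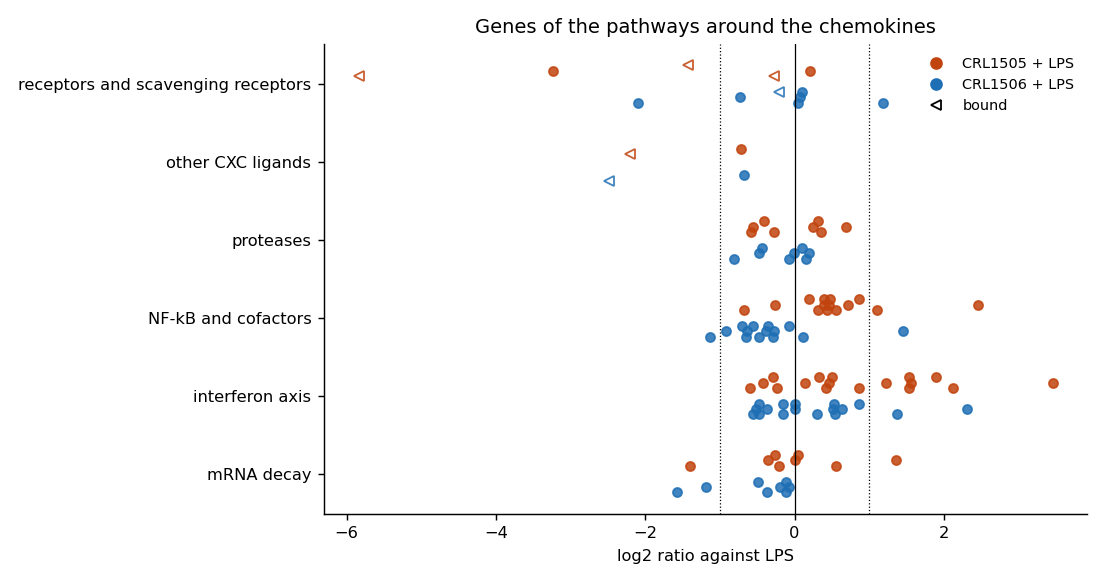
Log2 ratios to LPS of the genes of 6 lists around the chemokines, with CRL1505 + LPS above CRL1506 + LPS in each row, open triangles for bounds and dotted lines at 2-fold. With CRL1505 the receptors reach to -5.84 on the left and the interferon axis to 3.46 on the right, and the proteases lie inside the 2-fold lines with either strain.

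Of the 9 macrophage markers, 9 were well above background in LPS and 8 after either strain (not *Mrc1*), with summed signals of 531357 in LPS, 365491 in CRL1505 + LPS and 405748 in CRL1506 + LPS. These sums are not scaled between arrays. After scaling, the median log2 ratio of the macrophage markers to LPS was 0.15 with CRL1505 and -0.24 with CRL1506. Those past 2-fold were *Fcgr1* (2.40 with CRL1505 and 0.95 with CRL1506), *Adgre1* (2.27, and just past 2-fold with CRL1506) and *Csf1r* (-1.47 and -0.87). Of 20 markers of other cells, 6, 9 and 10 were called in LPS, CRL1505 + LPS and CRL1506 + LPS, with unscaled summed signals of 3422, 1986 and 3584. The defining epithelial markers *Krt8*, *Krt18* and *Cdh1* were called on no array, whereas *Epcam* was called in LPS (162) and CRL1506 + LPS (58.0) and had a log2 ratio to LPS of -1.39 with CRL1506 and a bound of -1.93 with CRL1505. Of the neutrophil genes, *S100a9* and *Ly6g* were called in CRL1505 + LPS only, at signals of 210 and 127. *S100a8* (1320, 370 and 1540 in LPS, CRL1505 + LPS and CRL1506 + LPS) and *Elane* (656, 372 and 521) were called on all arrays, with log2 ratios to LPS of -1.31 and -0.29 with CRL1505 and 0.31 and -0.24 with CRL1506. The part of these markers in the chemokine ratios was not tested, and a smaller number of expressing cells and less RNA per cell cannot be told apart.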

How the data were processed

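RNA of 3 RAW 264.7 cultures was hybridised to 1-colour (Cy3) SurePrint G3 Mouse GE arrays. The authors deposited the scanner output of each array, in which the processed signal is an intensity with local background subtracted, not normalized between arrays. The files carry Feature Extraction 12.0.3.1 and probe positions on mm9. Log2 values deposited as a table had been normalized between arrays, with a median of 6.77 on each, by a procedure whose setting is not given in the sources used here.

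Each array's log2 intensities had their 75th percentile over the 59305 gene spots subtracted, of which 48.5 to 55.3% were well above background. Outlier spots (241 to 467) were left out. A gene was represented by its brightest probe. Genes well above background on neither array compared were left out, and those on 1 side gave a bound, or no fold where the bound did not exceed 1. The number of arrays limits the precision. A ratio of at least 2-fold was counted, the threshold of the methods, and the t-test named there could not be run on 1 array per group.

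All 10 members were named, and of 6 pathway lists each gene past 2-fold against LPS with either strain. Of the 3 nearest genes, those reported here were named for members past 2-fold with both strains and well above background on all arrays. Some genes that these rules pick are not reported here. Members, lists and alternatives were chosen with earlier results of these data known. Alternatives were the median shift, quantile normalization, cyclic loess, spike-in scaling, normexp (offset 50), the deposited table, keeping outlier spots, leaving out uneven spots (mean over median pixel signal by over 0.2 on the log2 scale), no filter on dim probes, the mean over probes, and thresholds of 1.5-fold and 4-fold.

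Promoter sequences and gene names came from RefSeq tables (GRCm38.p6), and 8 of 10 members matched. Positions of probes are those of the files (mm9), and no annotation of that build was used. Proteins were not analysed here. Python 3.11.15, pandas 2.3.3, NumPy 2.4.6 and R 4.3.3 with limma 3.58.1 were used, and the procedure was tested on simulated data.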

Additional observations from a re-analysis of the deposited data

Results flagged for a closer look

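*Cxcl9* and *Cx3cl1* were singled out because their ratios to LPS passed 2-fold upward with CRL1505 and downward with CRL1506. The log2 difference between the strains was 2.43 for *Cxcl9* and at least 2.84 for *Cx3cl1*, undetected in CRL1506 + LPS. Over 6 other normalizations the difference lay between 1.88 and 2.93 for *Cxcl9*, and the bound for *Cx3cl1* between 1.57 (deposited table) and 3.39, with 1.62 under normexp. With 1 array per group the difference was not tested, and the CRL1505 + LPS array was on a slide of its own.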

How the results depend on the processing

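For CRL1505 against LPS, the number of chemokines at least 2-fold higher (2) was 0 with spike-in scaling, 1 with normexp, 1 with the deposited table and 0 at 4-fold. The number lower (1) was 2 with spike-in scaling, 0 with normexp, 2 at 1.5-fold and 0 at 4-fold, and the median (0.47) was 0.76 with the median shift and -0.16 with spike-in scaling. For CRL1506 against LPS, the number lower (4) was 1 with normexp, 2 with the deposited table and 0 at 4-fold, and the median (-0.71) was -0.49 with normexp. Between the strains, the median (0.39) was 0.94 with the median shift, 0.92 with quantile normalization, 0.97 with cyclic loess and -0.10 with spike-in scaling. The cause was not tested. The other counts kept within 1.5 times and the other medians within the median SD between probes. Over single genes, 174 values moved by less than that SD, 63 by more, and 0 ratios past 2-fold changed sign. Neither the outlier spots, when kept, nor the uneven ones, when left out, moved any of 25 values.

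No paired analysis was possible because each group had 1 array, and the slide as a block was not run for the same reason. CRL1506 + LPS against LPS was the comparison within a slide. Signals near background limit *Cxcl1*, *Cxcl3*, *Cxcl12*, *Cxcl14* and *Cx3cl1* to bounds or no fold in at least 1 comparison.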
